A study of Mus musculus with 2 samples.

Results

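The genes described here are those for the mitochondrial ribosomal proteins, taken as every row of either count table whose symbol starts with Mrpl or Mrps followed by a digit. There were 77 of them among 14371 genes listed in either table, and all 77 were listed in both. The study measured single-cell RNA, with unique molecular identifiers (UMIs, one per captured molecule), in myeloid cells of injured mouse muscle. One library came from C57BL/6 mice (Wt) and the other from C57BL/6:Cx3cr1CRExGata3fl/fl mice (Gata3KO), in which a Cre driven by *Cx3cr1*, a gene of monocytes and macrophages, acts on floxed alleles of the transcription factor gene *Gata3*. In both groups the tibialis anterior, a muscle of the lower leg, had received 50 µl of 10 µM cardiotoxin from Naja pallida, a snake toxin that kills muscle fibres, 4 days earlier. The sort kept CD45+CD11b+ cells that were Ly6G- and Zombie aqua-, meaning living leukocytes of the myeloid line without neutrophils, and 8000 cells per library were loaded. The labels do not state the age of the mice or how many were pooled. With 1 library per genotype there is no replicate and no test, and every interval below is at the 95% level and covers counting error only.

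The mitochondrial ribosome translates the few messages that the mitochondrial genome still encodes, all of them for subunits of the respiratory chain and the ATP synthase. Its proteins are encoded in the nucleus, made in the cytosol and imported. They fall into a large subunit (Mrpl), which holds the peptidyl transferase centre, and a small subunit (Mrps), which reads the message. Some have a counterpart in bacterial ribosomes and others are found only in mitochondria. Of the 77, 50 were counted as large subunit, among them *Mrps30* and *Mrps18a*, which sit there despite their names, and *Mrpl58*, a relative of release factors. Another 26 were counted as small subunit. *Mrps36*, since assigned to the 2-oxoglutarate dehydrogenase complex, was counted in neither.

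All 77 matched a gene of GENCODE vM21 (mm10), on 17 chromosomes, with at most 11 on one of them (chromosome 11). In 18 of the 77 (23.4%) another protein-coding gene started on the opposite strand within 1000 bases upstream, against 6.78% of 21951 protein-coding genes. *Mrpl54*, for example, starts 26 bases from *Apba3*, and *Mrpl32* starts 75 bases from the proteasome subunit gene *Psma2*. Of the 18 neighbours, 7 passed the filter on low values given below, and their own log2 ratios Gata3KO over Wt were above 0 for 3 and below 0 for 4, where 56.9% of all genes that passed were above 0. Past 1.5-fold, where 4.91% of all genes were higher and 6.81% lower, were *Klc4*, beside *Mrpl2* (35.0 CPM in Wt and 55.1 CPM in Gata3KO, where CPM are counts scaled to a common library total), and *Mitd1*, beside *Mrpl30* (32.0 and 19.7 CPM). Exons of 7 members overlapped another gene on the same strand, which may affect their counts. Among them were *Mrpl33* with *Gm43809*, *Mrpl3* with *Gm38077*, *Mrps24* with *Urgcp* and *Mrps6* with *Slc5a3*.

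Promoter sequences were available for 68 members, 74 windows in all, from 250 bases before to 50 bases after the start (RefSeq, GRCm38.p6). They are shown because genes of mitochondrial biogenesis are known to carry sites for NRF1 and for GABP, an ETS factor. The letters of the NRF1 motif (GCGCA, any base, then GCGC) occurred on either strand in 17.6% of member windows, against 11.3% of the 5752 windows of genes that passed the filter and 4.6% of all 32851 windows. The GABP letters (CCGGAAG) occurred in 33.8%, 20.2% and 8.86%, and the YY1 letters (AAGATGGCG) in 10.8%, 3.7% and 1.4%. The letters TATAAA occurred in 6.76% of member windows, against 7.34% and 13.6%. No one of these motifs contains another. Median GC content was 58.5% in member windows and 61.3% in windows of genes that passed. At least 1 of the NRF1, GABP and YY1 strings was present in 40 of the 74 windows (54.1%), against 31.3% of windows of genes that passed. A match is only a run of letters, not a bound site. Members with the GABP letters that passed the filter had a median log2 ratio, Gata3KO over Wt, of 0.06 (23 members) and those without them 0.17 (36 members); for NRF1 the medians were 0.08 (13 members) and 0.16 (46 members), and for YY1 0.17 (6 members) and 0.15 (53 members). The windows of 4 members with high levels and a match are printed from 250 bases before the start to 30 after, 5′ to 3′. Over that length, *Mrps14*, *Mrpl23*, *Mrpl20* and *Mrps24*, also with high levels, held no NRF1, GABP or YY1 match and are not printed. Matches are in capitals: GABP in *Mrpl33*, GABP at both places in *Mrpl52*, NRF1 then GABP in *Mrps21*, and NRF1 in *Mrpl30*.
Mrpl33 (chr5:31613701-31613980, plus strand): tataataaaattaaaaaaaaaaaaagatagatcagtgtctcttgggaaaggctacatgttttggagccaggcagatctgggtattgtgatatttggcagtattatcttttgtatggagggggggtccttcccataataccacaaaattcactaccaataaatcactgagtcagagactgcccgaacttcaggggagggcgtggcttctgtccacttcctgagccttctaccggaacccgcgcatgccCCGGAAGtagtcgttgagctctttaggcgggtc
Mrpl52 (chr14:54426659-54426938, plus strand): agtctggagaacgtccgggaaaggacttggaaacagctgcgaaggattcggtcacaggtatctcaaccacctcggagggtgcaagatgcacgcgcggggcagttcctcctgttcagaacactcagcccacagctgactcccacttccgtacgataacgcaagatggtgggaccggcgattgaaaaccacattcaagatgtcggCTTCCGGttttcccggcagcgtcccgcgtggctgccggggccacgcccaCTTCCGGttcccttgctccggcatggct
Mrps21 (chr3:95871485-95871764, minus strand): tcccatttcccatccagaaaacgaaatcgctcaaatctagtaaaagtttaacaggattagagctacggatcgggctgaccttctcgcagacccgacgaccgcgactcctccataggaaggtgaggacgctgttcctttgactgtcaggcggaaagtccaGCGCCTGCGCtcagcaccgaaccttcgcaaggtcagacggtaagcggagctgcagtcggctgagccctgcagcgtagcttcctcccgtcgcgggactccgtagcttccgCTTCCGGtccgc
Mrpl30 (chr1:37890227-37890506, plus strand): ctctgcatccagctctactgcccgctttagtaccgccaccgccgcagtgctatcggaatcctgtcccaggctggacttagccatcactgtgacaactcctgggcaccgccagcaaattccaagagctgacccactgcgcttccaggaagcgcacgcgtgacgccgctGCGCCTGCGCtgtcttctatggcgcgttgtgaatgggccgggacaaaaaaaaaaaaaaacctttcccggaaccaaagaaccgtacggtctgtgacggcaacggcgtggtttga

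The libraries held 3290 Wt and 3434 Gata3KO barcodes, with 2 barcode sequences in both, and 15392330 and 19422237 UMIs. The median share of UMIs from the mitochondrial genome was 15.7% in Wt and 21.8% in Gata3KO, so a limit of 10% kept 990 and 650 cells (30.1% and 18.9%). *Gata3* itself had 8 UMIs in each library over every barcode and 1 and 1 in monocytes and macrophages, which cannot check the deletion, since a 3′ tag may lie outside the deleted part. Of 9 clusters, 3 carried macrophage markers and form the class called monocytes and macrophages (404 Wt and 398 Gata3KO cells, with 4346083 and 6842320 UMIs). Cluster 1 was lipid-handling macrophage-like (led by *Gpnmb* and *Fabp5*), cluster 2 interferon-responding macrophage-like (led by *Ccl12*, *Iigp1* and *Ifit2*), and cluster 3 scored as lipid-handling macrophage-like but was led by the inflammatory and stress genes *Cxcl2*, *Gdf15* and *Ier3*. Cluster 2 made up 55.4% of the Wt class but 9.55% of the Gata3KO class, cluster 1 made up 29.5% and 48.7%, and cluster 3 made up 15.1% and 41.7%. Median depth in the class was 8841 UMIs per cell in Wt and 17227 in Gata3KO.

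In monocytes and macrophages the mitochondrial ribosomal proteins were modest messages whose levels spread widely. Summed over the 77, they took 18428 UMIs or 4240 CPM (interval 4179 to 4302) in Wt and 31033 UMIs or 4535 CPM (4485 to 4586) in Gata3KO. By gene, the mean CPM of the libraries ran from 7.17 (*Mrps27*) to 202.9 (*Mrpl33*), with a median of 46.3. Each captured molecule is counted once at its 3′ end, so these levels are not divided by gene length. The large subunit gave 68% of the member UMIs in Wt and 67.6% in Gata3KO, and the small subunit gave 30.3% and 30.6%. Per cell, the median was 35 member UMIs in Wt and 78 in Gata3KO, or 3877 and 4272 CPM, and 0.248% and 0% of cells had none. The 8 most abundant members held 25.9% of the sum.

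These 8 came from both subunits. *Mrpl33*, a small large-subunit protein with a bacterial counterpart, was at 191.2 CPM in Wt and 214.7 CPM in Gata3KO. *Mrpl52*, a mitochondria-specific large-subunit protein, was at 178.1 and 190.6 CPM. *Mrps21* and *Mrps14*, of the small subunit, were at 132.8 and 149.7 CPM and at 128.6 and 146 CPM. In each of these 4 the Gata3KO value was the higher, by log2 ratios of 0.10 to 0.18, and the interval of *Mrpl52* held 0. *Mrpl30* went the other way, with 131.4 CPM in Wt and 120 CPM in Gata3KO (log2 ratio -0.13, interval -0.29 to 0.03). *Mrpl20* stood at 103.8 and 118.1 CPM, *Mrpl23* at 108.6 and 137.2 CPM and *Mrps24*, whose exons overlap *Urgcp*, at 97.8 and 117.4 CPM.

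Cluster 8 carried skeletal muscle markers and is left out of this ranking. The family was then highest in the cycling part of cluster 4, which also held muscle transcripts. It was lowest in barcodes with few UMIs. Cluster 8 was at 4242 CPM in Wt (31 cells) and 6994 CPM in Gata3KO (4 cells). With both libraries together, the sum was 4801 CPM in cluster 1, 4047 in cluster 2, 4133 in cluster 3 and 4545 in cluster 5, which is conventional dendritic cell 2-like. The intervals of clusters 2 and 3 overlapped (3963 to 4132 and 4069 to 4197), and those of clusters 1 and 5 (4741 to 4861 and 4433 to 4659) did not overlap with each other or with these. Mature dendritic cell-like cells (cluster 7) were at 2681 CPM. The lowest were the low-UMI clusters, at 1753 CPM in the unnamed cluster 0 (median 2641 UMIs per cell, led by *Gm42418* and *Malat1*) and 1958 CPM in the dendritic cell-like cluster 6. Cytosolic ribosomal protein UMIs were also low there (50590 CPM in cluster 0 against 119800 in cluster 1).

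The highest sum among the larger clusters was in cluster 4 (5710 CPM), an unnamed mixture led by collagen genes that split into 4 parts. Its cycling part, which also held muscle transcripts, was at 6512 CPM in Wt (34 cells) and 6480 CPM in Gata3KO (23 cells). A lipid-handling macrophage-like part led by *Mmp12* was at 5359 and 6233 CPM (24 and 13 cells). In Gata3KO its interval overlapped that of the cycling part (5981 to 6493 and 6260 to 6705). In Wt it did not (5142 to 5582 and 6344 to 6682). A macrophage-like part with *Mrc1* and *Stab1* was at 3385 CPM in 5 Wt cells and 4762 CPM in 50 Gata3KO cells. Over the 6 clusters of at least 100 cells, cluster 4 was the highest for 56 of the 77 members and cluster 0 the lowest for 75. The share of all genes ranked this way was not computed, so these counts are not read as a trait of the family. The 4 members with the widest range over these clusters at a mean of 50 CPM were *Mrpl42* (14.6 CPM in cluster 0 to 131.1 CPM in cluster 4), *Mrps33* (17.5 to 125.3 CPM), *Mrps17* (13.6 to 79.95 CPM) and *Mrps14* (30.2 to 170.9 CPM).

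**Figure D1:**
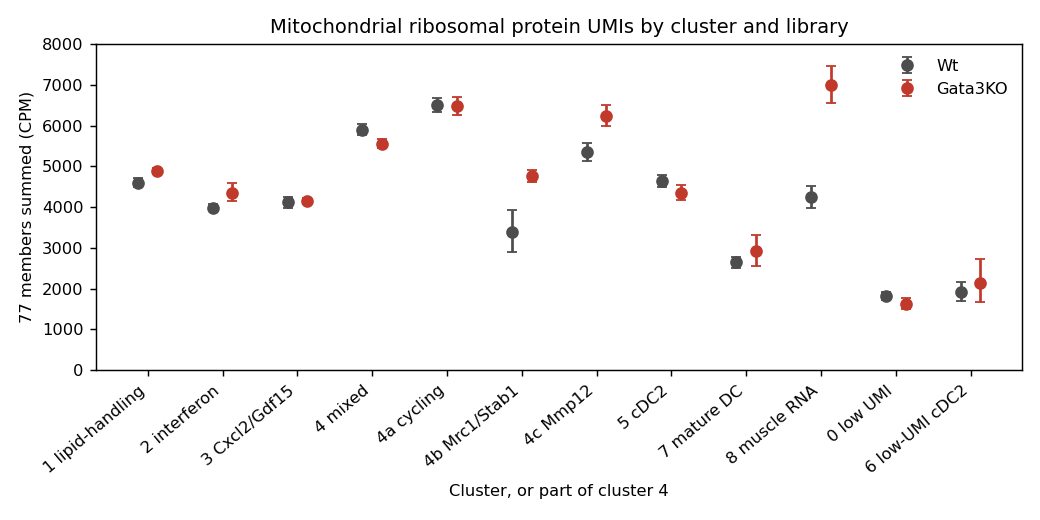
Summed level of the 77 members (CPM, linear axis) by cluster, or part of cluster 4, in each library; points are sums over all cells and bars are exact Poisson intervals (95%). The cycling part is at 6512 and 6480 CPM and the low-UMI clusters 0 and 6 lie between 1632 and 2147 CPM; cluster 8 holds 4 Gata3KO cells.

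Part of the order was shared with depth. Among cells of 10000 to 20000 UMIs, a range chosen after the data were seen, the sum was 4663 CPM in cluster 1, 4397 in cluster 2, 4063 in cluster 3, 4836 in cluster 4, 4785 in cluster 5 and 3052 in cluster 7. Clusters 1, 4 and 5 then had overlapping intervals (4558 to 4769, 4678 to 4999 and 4638 to 4936). The cycling part of cluster 4, with a median of 21650 UMIs per cell, was not compared alone at like depth. Cluster 3 stayed below clusters 1, 4 and 5 (3960 to 4168), and cluster 7 was still the lowest (2878 to 3234, over 29 cells in all). Relative to the nuclear genes of the respiratory chain, members had 21.8 UMIs per 100 in cluster 1, 23.1 in cluster 2 and 22.4 in cluster 3. Clusters 4 and 5 were at 24.5 and 26.1. On this measure the low-UMI clusters 0 and 6, lowest by CPM, were the highest, at 27 and 34.4. Clusters 7 and 8 were the lowest, at 20.9 and 19.8. Relative to cytosolic ribosomal proteins, clusters 5 and 7 were the lowest, with 2.29 and 1.91 UMIs per 100 against 4.01 in cluster 1, while the low-UMI dendritic cell-like cluster 6 was at 3.38, beside 3.36 in cluster 3 and 3.01 in cluster 2.

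Single members did not all follow the sum. Of 34 members at a mean of 50 CPM or more over clusters 1, 2, 3 and 5, a set of clusters chosen after the data were seen, 23 were highest in cluster 1 and 8 in cluster 5. The range over these clusters was above 1.5-fold for 12 members and as small as 1.11-fold (*Mrps15*). All genes were not counted in the same way, so these counts cannot be set apart from those of other genes. *Mrpl52* was highest in the dendritic cell-like cluster 5, at 354.8 CPM in Wt and 369.8 CPM in Gata3KO. In clusters 1, 2 and 3 it lay between 171.1 and 203.7 CPM in either library, so the ranges did not overlap. *Mrpl23*, a large-subunit protein near the exit of the peptide tunnel, had the opposite pattern, with 63.3 and 67.8 CPM in cluster 5 against 129.7 and 147.3 CPM in cluster 1. *Mrpl34* was likewise low in cluster 5 (52.4 and 43.8 CPM) and high in cluster 1 (84.6 and 99.2 CPM). These are descriptions of clusters made from the same cells, with no test.

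**Figure D2:**
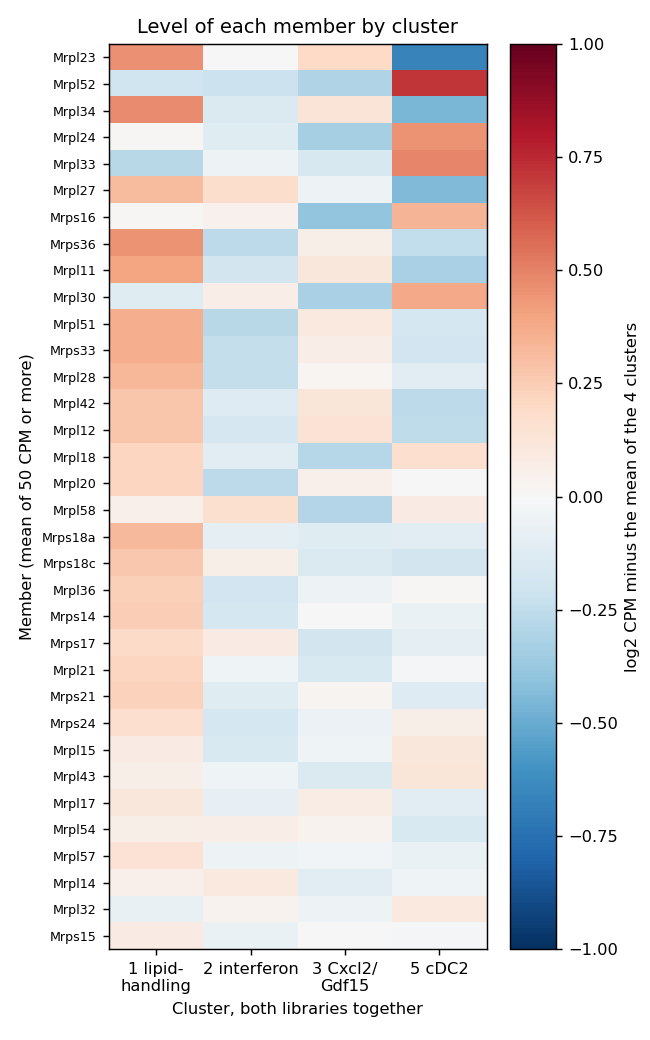
Level of the 34 members at a mean of 50 CPM or more, as log2 CPM minus the mean of the 4 clusters shown (colour, from -1 to 1), with both libraries together and rows ordered by their range. *Mrpl52*, *Mrpl24* and *Mrpl33* are highest in the cDC2 cluster, *Mrpl23* and *Mrpl34* in the lipid-handling cluster.

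Between the genotypes the family was slightly higher in Gata3KO monocytes and macrophages, by a log2 ratio of 0.10 (interval 0.07 to 0.12, a ratio of 1.07). Members and genes were compared one by one where their mean was 20 CPM or more over the libraries and both together held at least 20 UMIs. Of the 77 members, 68 passed. The ratio was above 0 for 51 of them and below 0 for 17, against 56.9% above 0 among the 5580 genes that passed. The median log2 ratio was 0.14 over these members and 0.05 over all genes. None of the 68 was past 1.5-fold in either direction, while 4.91% of all genes were higher and 6.81% lower by more than that. With median-of-ratios size factors, which centre the typical gene, the log2 ratio of the sum was 0.05. The other 9 members lay between 7.17 and 18.7 CPM (*Mrpl10*, *Mrpl37*, *Mrpl47*, *Mrpl49*, *Mrps2*, *Mrps6*, *Mrps22*, *Mrps27* and *Mrps31*).

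The 2 subunits differed between the genotypes by like amounts. Large-subunit UMIs were at 2885 CPM in Wt and 3066 CPM in Gata3KO (log2 ratio 0.09, interval 0.06 to 0.12), and 33 of the 46 members that passed were higher. Small-subunit UMIs were at 1287 and 1388 CPM (0.11, interval 0.06 to 0.16), and 17 of 21 were higher. Both counts stand beside 56.9% of all genes higher. Members were also grouped, from general knowledge, as with or without a bacterial counterpart. The log2 ratios were 0.11 and 0.06, with overlapping intervals (0.08 to 0.14 and 0.02 to 0.11). The group without one held *Mrpl47*, *Mrps18a* and *Mrps18b*, whose placement is open. Other placements were not tried, so the gap is not read as a difference. Members that stand apart by place or relationship were *Mrps30* (24.9 CPM in Wt and 27.2 CPM in Gata3KO) and *Mrps18a* (65.6 and 56.7 CPM), both of the large subunit, the release factor relative *Mrpl58* (56.1 and 51.2 CPM) and *Mrps36* (68.8 and 81.4 CPM). Of these only *Mrps36*, which was counted in neither subunit, had an interval without 0 (log2 ratio 0.24, interval 0.04 to 0.45). In cluster 2 alone the ratio was 0.19 for the large subunit (interval 0.09 to 0.28) and -0.03 for the small one (interval -0.19 to 0.12), and in cluster 3 it was -0.03 (interval -0.09 to 0.04) and 0.11 (interval 0.01 to 0.21). The difference between the subunits in these clusters was not tested.

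The largest ratios were in the small subunit. *Mrps5* (chr2:127587222-127606829, plus strand, mm10), a small-subunit protein with a bacterial counterpart, was at 25.8 CPM in Wt and 37.9 CPM in Gata3KO (log2 ratio 0.55, interval 0.23 to 0.89). *Mrps28* (chr3:8802146-8923918, minus strand) was at 28.8 and 39.3 CPM (0.45, interval 0.14 to 0.77). Next were large-subunit members: *Mrpl11*, whose bacterial relative sits at the factor-binding stalk, was at 49.2 and 62.7 CPM, *Mrpl34* at 69.7 and 88.3 CPM, *Mrpl23* at 108.6 and 137.2 CPM and *Mrpl50* at 19.8 and 24.7 CPM. Their log2 ratios lay between 0.32 and 0.35, and the interval of *Mrpl50* held 0.

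At the other end, *Mrpl19* (chr6:81957851-81965958, minus strand), whose exons overlap those of *Gcfc2* on the other strand, was at 29.5 CPM in Wt and 22.5 CPM in Gata3KO (log2 ratio -0.39, interval -0.74 to -0.04). *Mrps18b*, a small-subunit protein, was at 35.4 and 27.3 CPM (-0.37, interval -0.69 to -0.06). *Mrpl54* (chr10:81264713-81266934, minus strand), a mitochondria-specific large-subunit protein, had the most UMIs of these (508 and 645), at 116.9 and 94.3 CPM (-0.31, interval -0.48 to -0.14). *Mrps17* and *Mrps16* followed at -0.26 each, with 60.7 and 50.6 CPM and with 81.0 and 67.7 CPM, and *Mrpl3* at -0.24, with 33.4 and 28.2 CPM. In all, the interval lay above 0 for 17 members (*Mrpl11*, *Mrpl18*, *Mrpl20*, *Mrpl23*, *Mrpl28*, *Mrpl33*, *Mrpl34*, *Mrpl42*, *Mrpl51*, *Mrpl57*, *Mrps5*, *Mrps14*, *Mrps21*, *Mrps24*, *Mrps28*, *Mrps33* and *Mrps36*), below 0 for 5 (*Mrpl19*, *Mrpl54*, *Mrps16*, *Mrps17* and *Mrps18b*) and held 0 for 46. Of all genes, 26.7% had an interval above 0 and 19.8% below 0, so the share of members above 0 was near that of all genes and the share below 0 smaller.

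**Figure D3:**
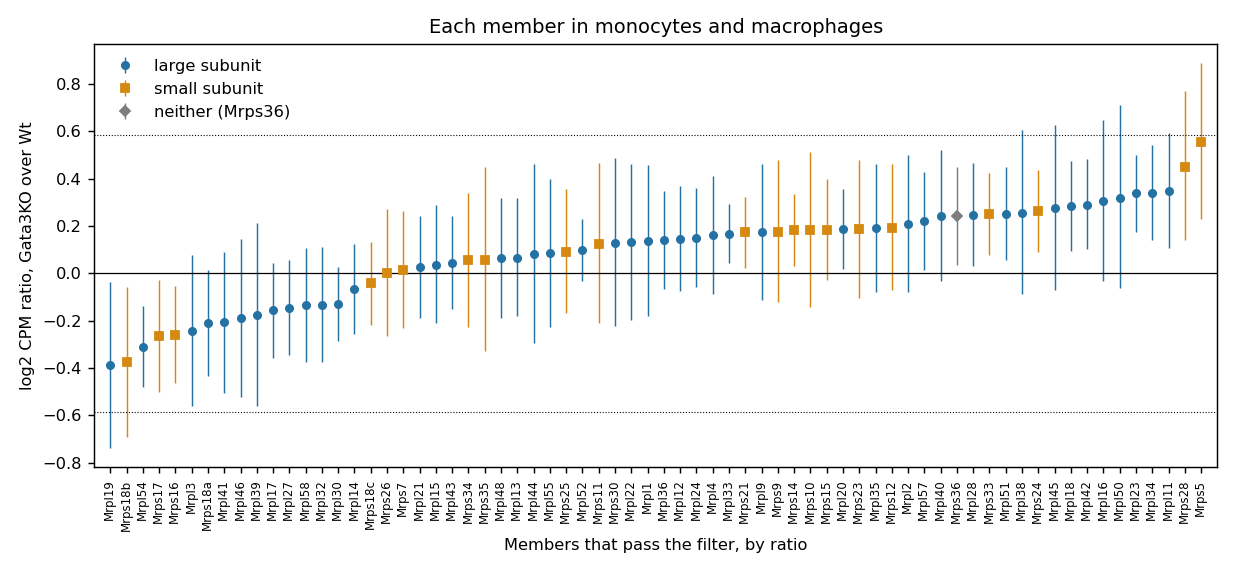
Log2 ratio of CPM, Gata3KO over Wt, in monocytes and macrophages for the 68 members that passed the filter, ordered by ratio and marked by subunit; bars are exact conditional binomial intervals (95%) and dotted lines mark 1.5-fold. All points lie between -0.39 (*Mrpl19*) and 0.55 (*Mrps5*), inside the dotted lines.

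The difference in the class varied with depth. Cells of the class with 5000 to 10000 UMIs had 3820 CPM in Wt and 3678 CPM in Gata3KO (log2 ratio -0.055, interval -0.15 to 0.04). Those with 10000 to 20000 UMIs had 4316 and 4437 CPM (0.04, interval -0.003 to 0.08), and those with 20000 or more had 4791 and 4681 CPM (-0.03, interval -0.08 to 0.01). The interval excluded 0 only in the shallowest cells, below 5000 UMIs, with 2908 CPM in 89 Wt cells and 3662 CPM in 48 Gata3KO cells (0.33, interval 0.15 to 0.51). From the shallowest range up, the members above 0 numbered 13 of 19, 27 of 64, 44 of 69 and 31 of 72, against 52.6%, 56.6%, 57.2% and 51.5% of all genes. In the ranges from 5000 UMIs up the sums thus differed by at most 0.055 in either direction on the log2 scale.

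Within each library the level was higher in deeper cells. In Wt, the sum was higher in cells of 20000 or more UMIs than in cells of 5000 to 10000 by a log2 ratio of 0.33 (interval 0.27 to 0.39), with 58 of 67 members higher against 49.1% of all genes. In Gata3KO it was higher by 0.35 (0.26 to 0.43), with 52 of 66 members higher against 44.4% of all genes. Past 1.5-fold were 14 and 21 members, all of them higher in the deep cells, where 15.2% and 12.7% of all genes were higher and 16.9% and 19.6% lower by as much. The part of depth in the difference between the genotypes was not tested beyond these ranges, in which the mix of clusters also differs.

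**Figure D4:**
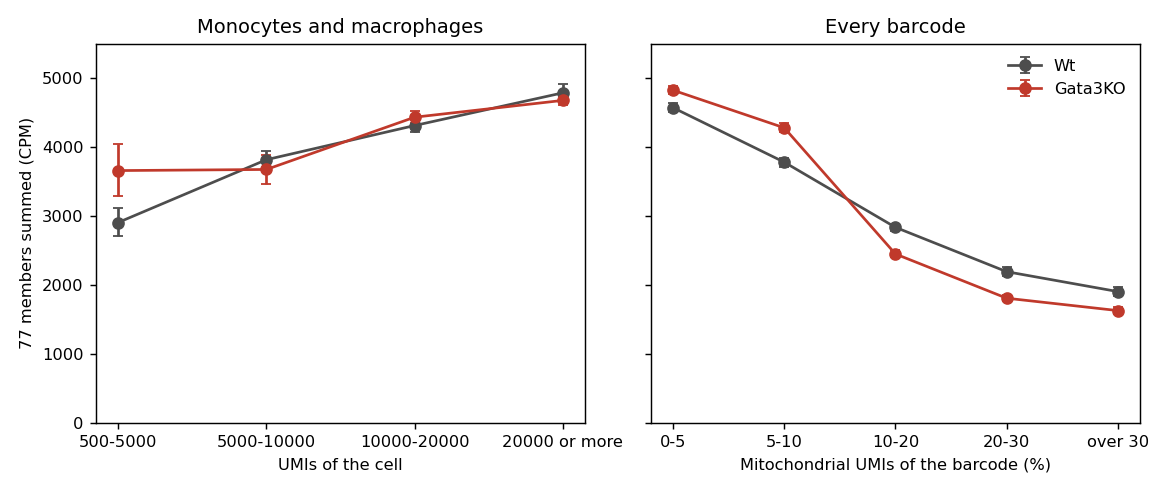
Summed level of the 77 members (CPM, linear axis) in monocytes and macrophages by UMIs of the cell (left) and over every barcode by its share of mitochondrial UMIs (right); bars are exact Poisson intervals (95%). Wt and Gata3KO lie close together from 5000 UMIs up, and their order turns between 5 to 10% and 10 to 20% mitochondrial UMIs.

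Of 66 members that passed and had UMIs of both libraries in each of the 4 depth ranges, 8 were higher in all of them (*Mrpl16*, *Mrpl18*, *Mrpl20*, *Mrpl33*, *Mrps5*, *Mrps24*, *Mrps28* and *Mrps30*) and 4 lower in all (*Mrpl41*, *Mrpl54*, *Mrpl58* and *Mrps18a*). Of 5453 genes chosen alike, 19.1% were higher in all and 12.3% lower in all, beside 8 and 4 of 66 members. *Mrps5* was higher in Gata3KO in all 4 depth ranges, by log2 ratios of 0.26 to 0.72, and the interval excluded 0 from 10000 to 20000 UMIs alone (22.6 and 37.2 CPM). *Mrpl33* was higher in all 4, by 0.14 to 0.27. *Mrpl54* was lower in all 4, by -0.90 to -0.21, with 115.2 CPM in Wt and 81.3 CPM in Gata3KO at 10000 to 20000 UMIs (-0.50, interval -0.79 to -0.21). *Mrpl19* was higher below 10000 UMIs and lower above.

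Within clusters the direction differed. The sum was 4596 CPM in Wt and 4896 CPM in Gata3KO in cluster 1 (log2 ratio 0.09, interval 0.05 to 0.13). In cluster 2 it was 3990 and 4355 CPM (0.13, interval 0.05 to 0.21), and in cluster 3 it was 4113 and 4138 CPM (0.01, interval -0.05 to 0.06). It was lower in Gata3KO in cluster 5 (4642 and 4352 CPM, -0.09, interval -0.17 to -0.02). Over the whole of the mixed cluster 4 it was 5902 and 5551 CPM (-0.09, interval -0.13 to -0.05), but none of its parts was lower beyond counting error. The ratio was -0.01 in the cycling part (interval -0.07 to 0.06), 0.49 in the macrophage-like part (interval 0.27 to 0.72), 0.22 in the lipid-handling part (interval 0.13 to 0.30) and 0.07 in the fibroblast-like part (interval -0.11 to 0.25). The mix of these parts differed, since the macrophage-like part, low in the sum, held 5 Wt and 50 Gata3KO cells and the cycling part 34 and 23. Among cells of 10000 to 20000 UMIs the ratio was 0.07 in cluster 1, 0.20 in cluster 2, 0.06 in cluster 3, -0.08 in cluster 4 and -0.17 in cluster 5, the same order of signs. Summed monocyte markers in the class were at 2951 CPM in Wt and 1409 CPM in Gata3KO (10 of 10 seen), and interferon-responding macrophage markers at 3686 and 567.2 CPM (8 of 8). Mature dendritic cell markers were at 53.2 and 5.41 CPM (7 of 8), and B cell markers at 154.6 and 72.9 CPM (2 of 5, with *Ms4a1* at 0). Muscle marker UMIs in the class were at 134.4 CPM in Wt and 46.8 CPM in Gata3KO (6 of 6 markers seen), and those of fibroblasts at 19.6 and 6.87 CPM (6 of 6). Those of conventional dendritic cells 2 were at 343.1 and 182.8 CPM (8 of 8). Their part in the result was not tested.

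By member, cluster 1 had 49 of 70 above 0 against 54.9% of all genes, with *Mrps5* past 1.5-fold (24.7 and 41.0 CPM), against 3.36% of all genes higher and 4.98% lower by that much. In the other clusters the share above 0 was nearer that of all genes: 38 of 64 in cluster 2 against 54.2%, 37 of 67 in cluster 3 against 54% and 30 of 68 in cluster 5 against 46.4%. Cluster 2 had 10 of 64 higher and 6 lower by over 1.5-fold, against 11.8% and 11.5% of all genes, and cluster 3 had 3 and 6 of 67, against 10.5% and 10.1%. The 3 in cluster 3 were *Mrpl23* (85.2 CPM in Wt and 127.9 CPM in Gata3KO), *Mrpl40* (26.5 and 44.9 CPM) and *Mrpl45* (17.3 and 26.2 CPM). Its 6 lower members were *Mrpl19*, *Mrpl35*, *Mrpl54* (142.7 and 90.1 CPM), *Mrps6*, *Mrps18a* and *Mrps18b* (42.6 and 20.9 CPM). Between the libraries cluster 3 also differed in monocyte markers (4540 CPM in Wt and 1072 CPM in Gata3KO, 10 of 10 seen), macrophage markers (21510 and 43270 CPM, 10 of 10) and interferon-responding markers (4383 and 493.1 CPM, 8 of 8). Mature dendritic cell markers there were at 163.5 and 4.65 CPM (7 of 8), and the part of these shifts was not tested. In cluster 4, 20 of 72 were above 0 against 47.5% of all genes, and 3 were lower and 0 higher by over 1.5-fold, against 11.6% and 9.05%. These were *Mrpl35* (83.6 and 55.01 CPM), *Mrpl39* and *Mrpl45* (48.6 and 27.5 CPM), while *Mrps25* was the highest there (57.3 and 78.6 CPM). In its cycling part 36 of 73 were above 0, against 52.1%. Cluster 5 had 2 higher and 10 lower of 68, against 8.8% and 13.8%, and the low-UMI cluster 0 had 3 and 9 of 34, against 19% and 13.2%. Of 61 members that passed in clusters 1, 2 and 3 alike, 21 were above 0 in all of them (21.5% of all genes were) and 6 below 0 in all (14.6% of all genes were). The 21 included *Mrpl33*, *Mrpl23*, *Mrpl52*, *Mrpl11*, *Mrps5* and *Mrps14*. The 6 were *Mrpl19*, *Mrpl27*, *Mrpl54*, *Mrps17*, *Mrps18a* and *Mrps18b*.

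*Mrpl33*, whose exons overlap *Gm43809*, had the highest ratio in the interferon-responding cluster 2. It was at 198.5 CPM in Wt (369 UMIs) and 375.3 CPM in Gata3KO (129 UMIs in 38 cells), a log2 ratio of 0.92 (interval 0.62 to 1.21). In clusters 1 and 3 it was at 174.8 and 202.6 CPM and at 206.1 and 210.3 CPM. The Gata3KO level in cluster 2 was close to that of the dendritic cell-like cluster 5 (313.3 and 361 CPM). In cluster 2 the summed monocyte markers were at 3796 CPM in Wt and 6718 CPM in Gata3KO (10 of 10 seen), and the macrophage markers at 34810 and 22470 CPM (10 of 10 seen). The interferon-responding markers that name the cluster were at 4892 and 2357 CPM (8 of 8). Resident-like macrophage markers were at 616.5 and 1443 CPM (7 of 8). Markers of conventional dendritic cells 2 were at 514.3 and 439.3 CPM there, and 80 of 83 cytosolic ribosomal proteins were above 0 in cluster 2. The part of this shift between the libraries within cluster 2 was not tested. At the low end, *Mrpl46* in cluster 2, with 53 and 4 UMIs, *Mrps10* in cluster 5, with 35 and 4, and *Mrpl17* in cluster 0, with 21 and 4, rest on few counts. In cluster 3, *Mrps6*, whose exons overlap *Slc5a3*, was at 44.9 and 19.3 CPM (-1.22, interval -1.83 to -0.60).

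Barcodes that the limit of 10% mitochondrial UMIs leaves out went the other way. In 2300 Wt and 2784 Gata3KO barcodes the members summed to 2482 CPM (interval 2446 to 2519) and 2010 CPM (1982 to 2039), a log2 ratio of -0.30 (-0.33 to -0.27). Of 54 members that passed, 6 were above 0, against 54% of all genes, and 9 were lower and 0 higher by over 1.5-fold, against 8.15% and 6.53%. The lowest was *Mrpl11*, at 26.9 and 14.96 CPM. With UMIs of the mitochondrial genome left out of the total, the values were 3189 and 2646 CPM (-0.27, interval -0.30 to -0.24). The level was lower where the mitochondrial share was higher, from 4575 CPM in Wt and 4829 CPM in Gata3KO at up to 5% to 1905 and 1629 CPM above 30%. These totals hold the mitochondrial UMIs themselves. Without them the values went from 4717 and 5002 CPM at up to 5% to 2900 and 2404 CPM from 20 to 30%, and were 3202 and 2601 CPM above 30%, higher than in the range before. The ratio was 0.08 at up to 5%, 0.18 from 5 to 10%, -0.21 from 10 to 20%, -0.28 from 20 to 30% and -0.23 above 30%. Cytosolic ribosomal proteins followed the same turn, at 120700 and 131500 CPM of the total without mitochondrial genome UMIs from 5 to 10% and 97970 and 82280 CPM from 10 to 20%. Over all kept cells together the members were at 4240 and 4626 CPM (0.13, interval 0.11 to 0.15), with 50 of 69 above 0 against 54.9% of all genes, and 0 past 1.5-fold against 6.52% higher and 8.44% lower. Over every barcode they were at 3433 and 3312 CPM (-0.05, interval -0.07 to -0.04), with 19 of 65 above 0 against 55.2% of all genes, and 0 past 1.5-fold against 5.34% higher and 6.26% lower.

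Other genes of mitochondrial translation did not share one direction in monocytes and macrophages. Of all genes, 56.9% were above 0, and the lists below are too short for their counts to be set apart from that share. Of 5 ribosome subunits that carry other symbols, 4 passed, and 3 were above 0. They include *Aurkaip1* (137.8 CPM in Wt and 147 CPM in Gata3KO) and *Gadd45gip1* (45.3 and 51.9 CPM). *Chchd1* was at 71.3 CPM in Wt and 91.1 CPM in Gata3KO (log2 ratio 0.35, interval 0.15 to 0.55) and *Dap3*, a small-subunit GTPase, at 39.1 and 34.8 CPM. Of 15 translation factors 5 passed, with 4 above 0. *Tufm*, the elongation factor that brings charged tRNA, was at 26 and 33.6 CPM (0.37, interval 0.04 to 0.71), and *Slirp*, which stabilises mitochondrial messages, at 131.2 and 110.3 CPM (-0.25, interval -0.41 to -0.09). All 4 of 25 assembly factors that passed were below 0, from *Malsu1* (41.2 and 34.4 CPM) to *C1qbp* (65.1 and 64.2 CPM), each with an interval that held 0.

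Of 17 mitochondrial tRNA synthetases 3 passed. *Lars2*, the leucine enzyme, was at 423.6 CPM in Wt and 183.3 CPM in Gata3KO (-1.21, interval -1.31 to -1.10); it is also among the leading genes of the low-UMI cluster 0. *Cars2*, for cysteine, was at 20.5 and 21.5 CPM. Of 10 listed regulators of mitochondrial transcription and biogenesis 3 passed, all below 0: *Esrra* (31.3 and 20.8 CPM, -0.59), *Nrf1* (26.5 and 20.02 CPM, -0.40) and *Tfam* (23.0 and 20.9 CPM, -0.14). Among all genes 56.9% were above 0, and 3 genes are too few to give the list a direction. The regulators *Esrra* and *Nrf1* had intervals below 0.

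The nuclear respiratory chain genes, many of whose products assemble with those that the mitochondrial ribosome makes, had 65 of 79 above 0, against 56.9% of all genes. Their median log2 ratio was 0.15, beside 0.14 for the ribosomal proteins. Their sum was 18690 CPM in Wt and 20670 CPM in Gata3KO (0.15, interval 0.13 to 0.16). The log2 ratio was above 0 in clusters 1, 2 and 3. It was -0.07, -0.18 and -0.02 in clusters 0, 4 and 5, with an interval below 0 only in cluster 4. In the class, without mitochondrial genome UMIs in the total, the gap was smaller in deeper cells. The sums were 13730 and 17320 CPM below 5000 UMIs and 17160 and 18210 CPM from 5000 to 10000. They were 19990 and 20620 CPM from 10000 to 20000 and 22560 and 22680 CPM above. The part of depth was not tested. In the whole class, *Sdhd*, a membrane anchor of complex II, was at 86.7 and 116.2 CPM and *Ndufaf2*, an assembly factor of complex I, at 18.4 and 25.3 CPM. The lowest ratios were those of the complex I subunits *Ndufa6* (192.6 and 167 CPM) and *Ndufs8* (108.8 and 98.2 CPM). Cytosolic ribosomal proteins had 52 of 83 above 0 and a median of 0.04, near the 56.9% and 0.05 of all genes, led by *Rpsa* (1728 and 2782 CPM) and *Rpl3* (1124 and 1575 CPM), with *Rps27rt* (255.2 and 195.3 CPM) and *Rps24* (3230 and 2769 CPM) lowest. The mitochondrial genome had 8 of 13 genes above 0, also near that share. Among its messages, *mt-Nd3* was at 672.1 and 1008 CPM (0.59) and *mt-Co1* at 10310 and 8103 CPM (-0.35), and the sum of the 13 was 48640 and 47230 CPM (-0.04).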

How the data were processed

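The authors deposited 1 table per library of raw UMI counts per gene and barcode, per the file headers and the whole numbers they hold. The tools named in the submitters' processing notes are R 3.6.1, Seurat 3.0.2 and Cell Ranger 3.0.1, and the build is mm10. How they were set, or whether barcodes were filtered, is not given in the sources used here. Per the labels' protocols, libraries were 10x Chromium Single Cell 3' v3. Samples were grouped by the strain in the labels.

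Cells were kept with at least 500 UMIs, 200 genes and at most 10% mitochondrial UMIs. Both libraries were clustered together with scanpy 1.11.5, from 2000 variable genes reduced to 30 principal components, with 15 neighbours per cell (scikit-learn 1.9.0), by the Leiden method at resolution 0.6 (leidenalg 0.10.2, igraph 0.11.9). A cluster was named from marker lists when at least 3 markers were each seen in 25% of its cells and its mean z-score was at least 0.15, thresholds set after seeing the data, and unless its leading genes or low depth went against the name. Doublets called by Scrublet (1 Wt and 4 Gata3KO cells) were left in. UMIs were summed per library and population and scaled to CPM. Ratios have exact conditional binomial intervals and sums exact Poisson intervals at 95% (Python 3.11.15 with pandas 2.3.3, numpy 2.4.6 and scipy 1.17.1). Molecules were not replicated over animals, so the intervals hold counting error only; no test was made. A count of 0 was set to 3 UMIs; no member that passed was at 0 in these comparisons.

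The members and lists were chosen with earlier results of these data known. Named are the 8 members of highest level, the 6 largest ratios each way, the 4 of widest range over clusters of at least 100 cells, the extremes of each cluster with 20 cells of each library, and up to 2 genes each way of each list; *Mrpl24*, *Mrpl34* and *Mrps15* in the comparison of clusters, promoter neighbours, members past 1.5-fold in clusters 3 and 4, members of one direction over depth and *Mrps24* and *Mrps6* as overlapping genes were named after their values were seen. The ratio step was run on simulated data of 5475 genes for the Gata3KO and Wt class. The counts were Poisson draws from a single pooled profile, the model that the interval assumes. The interval lay on the right side of 0 for 28 of 49 genes changed 1.25-fold and 46 of 48 changed 1.5-fold. It did so for 46 of 46 changed 2-fold and 44 of 44 changed 4-fold. It held the true value for 95.5% of genes, a share close to that set by the model. Spread between cells or animals and the differing cluster mix were not simulated, so the run checks the calculation only. Alternatives covered the cell filter, doublets, resolution, class, scaling, cell weight, thinning to 2000 UMIs, equal cluster shares, the filter on low values and 10 CPM added; ranges of depth and mitochondrial share, cluster 4 split, and clusters 1, 2, 3 and 5 alone were added after seeing the data.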

Additional observations from a re-analysis of the deposited data

Results flagged for a closer look

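Under the same contrast, Gata3KO over Wt, the summed members lay on opposite sides of 0 in different cells, and the differences between these populations were not tested. The log2 ratio was 0.0971 in monocytes and macrophages, 0.0911 in cluster 1 and 0.1266 in cluster 2. It was -0.1512 in cluster 0, -0.0883 in cluster 4, -0.0929 in cluster 5 and -0.3042 in barcodes above the mitochondrial limit. In cluster 4, a mixture, no part was lower beyond counting error (-0.0071 in the cycling part, 0.4923, 0.2181 and 0.0715 in the macrophage-like, lipid-handling and fibroblast-like parts), and the cells sat in different parts in each library.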

How the results depend on the processing

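Each genotype is 1 library, the depth differs between the libraries, and so does the mix of clusters, so the small ratio of the sum is the result least secure here. No paired analysis was possible because each group has 1 sample and no test was made. For the class of monocytes and macrophages, the values that moved are given as log2 ratios of the sum, with a main value of 0.0971, then the median member, the large subunit and the small subunit; the cause was not tested. With every deposited barcode clustered anew, which puts 1068 Wt and 2755 Gata3KO barcodes in the class, they were -0.1568, -0.1692, -0.1545 and -0.1583, all reversed. A stricter filter of 1000 UMIs and 5% mitochondrial UMIs gave 0.0119, 0.0422, 0.0130 and 0.0170, and with the whole mixed cluster 4 added to the class 0.0253, 0.0243, 0.0149 and 0.0389. With only its macrophage parts added, chosen after seeing the data, the sum was 0.0983. Median-of-ratios size factors gave 0.0493, 0.0915, 0.0401 and 0.0615, equal weight per cell 0.1871, 0.2012, 0.1542 and 0.2536, and thinning to 2000 UMIs, which left out 21 Wt and 29 Gata3KO cells, 0.2036, 0.2366, 0.1844 and 0.2235. With at most 20% mitochondrial UMIs the sum was 0.0600, the median 0.0604 and the small subunit 0.0610, and over all kept cells the sum was 0.1257 and the median 0.0824. Equal cluster shares gave a median of 0.0680 and a small subunit of 0.0463, and Leiden resolutions of 0.3 and 1.2 gave medians of 0.1016 and 0.1048. By depth, an alternative added after seeing the data, the sum was 0.3326 below 5000 UMIs, -0.0550 from 5000 to 10000, 0.0397 from 10000 to 20000 and -0.0336 above.

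Members past 1.5-fold, 0 in each direction, became 1 higher and 2 lower under the stricter cell filter, 3 higher with cells weighted alike, 12 higher and 3 lower after thinning, and 1 lower with equal cluster shares. Thinning leaves fewer UMIs per gene. The share of all genes past 1.5-fold was not computed under these settings, so these counts cannot be read as a change in the members. The 51 higher members became 12 in the class of every barcode clustered anew, and 13, 27 and 31 below 5000, from 5000 to 10000 and above 20000 UMIs, where fewer members passed in the first. The 17 lower members became 52 in the class of every barcode clustered anew, 26 at 20% mitochondrial UMIs, 27 under the stricter filter, 31 with the whole of cluster 4 added and 26 with equal cluster shares. Apart from the depth ranges, the share of all genes above or below 0 was not computed for these alternatives. Within clusters, cells of at most 5% mitochondrial UMIs gave -0.5284 in cluster 0 and 0.0431 in cluster 1. Equal weight per cell gave 0.1453 in cluster 1 and 0.2320 in cluster 2, and thinning 0.1689 in cluster 1, 0.1887 in cluster 3 and -0.0344 in cluster 4. Cluster 5 turned to 0.0044 with mitochondrial genome and cytosolic ribosomal protein UMIs left out of the totals.

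In the class of every barcode clustered anew these members turned below 0: *Mrps21* (-0.1461), *Mrps14* (-0.2043), *Mrpl20* (-0.1467), *Mrps24* (-0.1336), *Mrpl11* (-0.0567), *Mrpl34* (-0.0137), *Mrpl42* (-0.0815) and *Mrps33* (-0.1214). Equal cluster shares turned *Mrps21* (-0.0252) and *Mrps33* (-0.0141), thinning turned *Mrps24* (-0.0649) and *Mrps18b* (0.1126), and equal weight per cell turned *Mrps16* (0.1218). *Mrpl52* (down to -0.1164), *Mrpl50* (down to -0.2355) and *Mrpl3* (up to 0.4497), whose intervals held 0, also changed sign under 1 or 2 alternatives. *Mrps5*, *Mrps28*, *Mrpl33* and *Mrpl23* were higher, and *Mrpl54*, *Mrpl19*, *Mrps17* and *Mrpl30* lower, in each of the 14 alternatives run for them, with *Mrps5* from 0.2723 to 0.6912 and *Mrpl54* from -0.4872 to -0.163. The depth ranges are not among these alternatives. There *Mrpl19* (1.07) and *Mrps17* (0.67) turned below 5000 UMIs, *Mrpl23* (-0.06) from 5000 to 10000 and *Mrpl30* (0.03) at 20000 or more. *Mrpl19* was also above 0 from 5000 to 10000 UMIs (0.31). *Mrps5*, *Mrps28*, *Mrpl33* and *Mrpl54* kept their direction in every depth range.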
